A study of Rattus norvegicus with 36 samples.

Results

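The xenobiotic and metabolic nuclear receptors of the liver are transcription factors that bind small molecules and switch on the genes that process them. Described here are 9 of them, Nr1i2, Nr1i3, Rxra, Ppara, Nr1h3, Hnf4a, Nr5a2, Esr1 and Nr2f2, at the level of their own RNA. Every probe set that the array's annotation gives to 1 of these genes and to no other gene was taken, which gave 15 of the 31042 probe sets tested and 9 of the 14217 named genes. Membership rests on the annotation and not on the values. Nr1i2, Nr1i3, Rxra, Ppara, Nr1h3 and Esr1 had 1 probe set each, and Hnf4a, Nr5a2 and Nr2f2 had 3 each.

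The 36 arrays, 1 per sample, measured liver RNA of male Harlan Sprague Dawley rats that were 7 weeks old at the start. The rats received the flame retardant HCDBCO (hexachlorocyclopentadienyl-dibromocyclooctane) by gavage on 5 days in a row, and RNA came from the left liver lobe taken 1 day after the last dose. The groups were corn oil alone (vehicle) and 5 HCDBCO doses with 6 samples each, of which the lowest were 0.05 mg/kg and 0.54 mg/kg, the middle one 5.41 mg/kg, and the highest 54.1 mg/kg and 541 mg/kg; all groups had corn oil in 5 ml per kg body weight. No label names an animal, a scan or a batch, so every p-value below rests on sample-to-sample spread, which may be partly technical. The 10 hepatocyte markers measured had mean vehicle values of 9.53 to 14.71 on the scale of the deposited RMA values, which is read as log2 from their range since no source states its base; every fold given rests on that. The array of 54.1 mg/kg replicate 5 had an upper quartile of 6.94, against 7.03 to 7.13 in the other 35 arrays; with it left out, none of the receptor probe sets was called either.

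PXR, encoded by Nr1i2, and CAR, encoded by Nr1i3, are the xenobiotic sensors of hepatocytes. Each pairs with RXR-alpha, encoded by Rxra, and binds near genes of the Cyp2b, Cyp2c and Cyp3a families, conjugating enzymes and transporters. CAR is held in the cytoplasm with chaperones until it is activated, and PXR is activated by ligand, so the activity of either receptor can change without a change of its RNA. PPAR-alpha (Ppara) and LXR-alpha (Nr1h3) sense fatty acids and oxysterols and also pair with RXR-alpha. HNF4-alpha (Hnf4a) and LRH-1 (Nr5a2) hold up hepatocyte gene expression and bile acid synthesis. Esr1 encodes estrogen receptor alpha, and Nr2f2 encodes COUP-TFII, an orphan receptor found in several cell types of the liver.

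None of the 15 receptor probe sets passed the test at any dose, which does not show that their RNA stayed the same. At 541 mg/kg against vehicle, 0 of 15 passed an adjusted p of 0.05 in the limma fit over all probe sets, where 0.155% of all probe sets passed. At 54.1 mg/kg the count was also 0 of 15, against 0.0741% of all probe sets. At 0.05, 0.54 and 5.41 mg/kg it was 0 of 15, and 0% of all probe sets passed; unadjusted, 0 of 15 had a p under 0.05, against 3.02%, 4.18% and 4.83% of all probe sets in that order of dose. Before adjustment, 2 of the 15 had a p under 0.05 at 541 mg/kg (13.3%, against 9.07% of all probe sets) and 2 at 54.1 mg/kg (13.3%, against 9.2%). The fit of a straight line over the order of the doses called 0 of 15, against 0.715% of all probe sets, and 4 of the 15 had an unadjusted p under 0.05 (26.7%, against 12%). The test for any difference among the 6 groups called 0 of 15, against 0.0999% of all probe sets, with adjusted p from 0.904 to 1.00 and none of the 15 under 0.05 before adjustment, against 5.99% of all probe sets. For 541 against 54.1 mg/kg the count was 0 of 15, against 0.00322% of all probe sets, and none of the 15 had an unadjusted p under 0.05, against 4.76%.

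The precision allowed most of these differences in array value to be bounded. The 95% confidence interval at 541 mg/kg against vehicle lay inside a 1.5-fold change in either direction for 14 of the 15 probe sets, and at 54.1 mg/kg for 12. These intervals are not adjusted for the number of probe sets, and 4 of them excluded 0: those of Ppara at 54.1 mg/kg, of Nr1h3 at 541 mg/kg and of Nr5a2 1390965_at at both of these doses. The interval that reached past 1.5-fold at 541 mg/kg was that of Nr1i3, and those at 54.1 mg/kg were Nr1i3, Ppara and the Nr5a2 probe set 1387573_a_at. The intervals inside 1.5-fold include those of Esr1 and Nr2f2 1395863_at, with mean values of 4.10 and 3.14. The median of all probe-set means was 5.11. RMA can shrink differences of dim probe sets, so the intervals of Esr1 and Nr2f2 1395863_at do not bound the change of RNA. The log2 differences of the 15 ran from -0.37 to 0.19 at 541 mg/kg, with a median of -0.03, where the median over all probe sets was 0.01. No receptor probe set had a dose group whose 6 values all lay above or all below the 6 vehicle values, where 0.744% of all probe sets had this at 541 mg/kg and 0.596% at 54.1 mg/kg. At the lower doses the share was 0.0773% at 0.05 mg/kg, 0.226% at 0.54 mg/kg and 0.151% at 5.41 mg/kg.

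**Figure D1:**
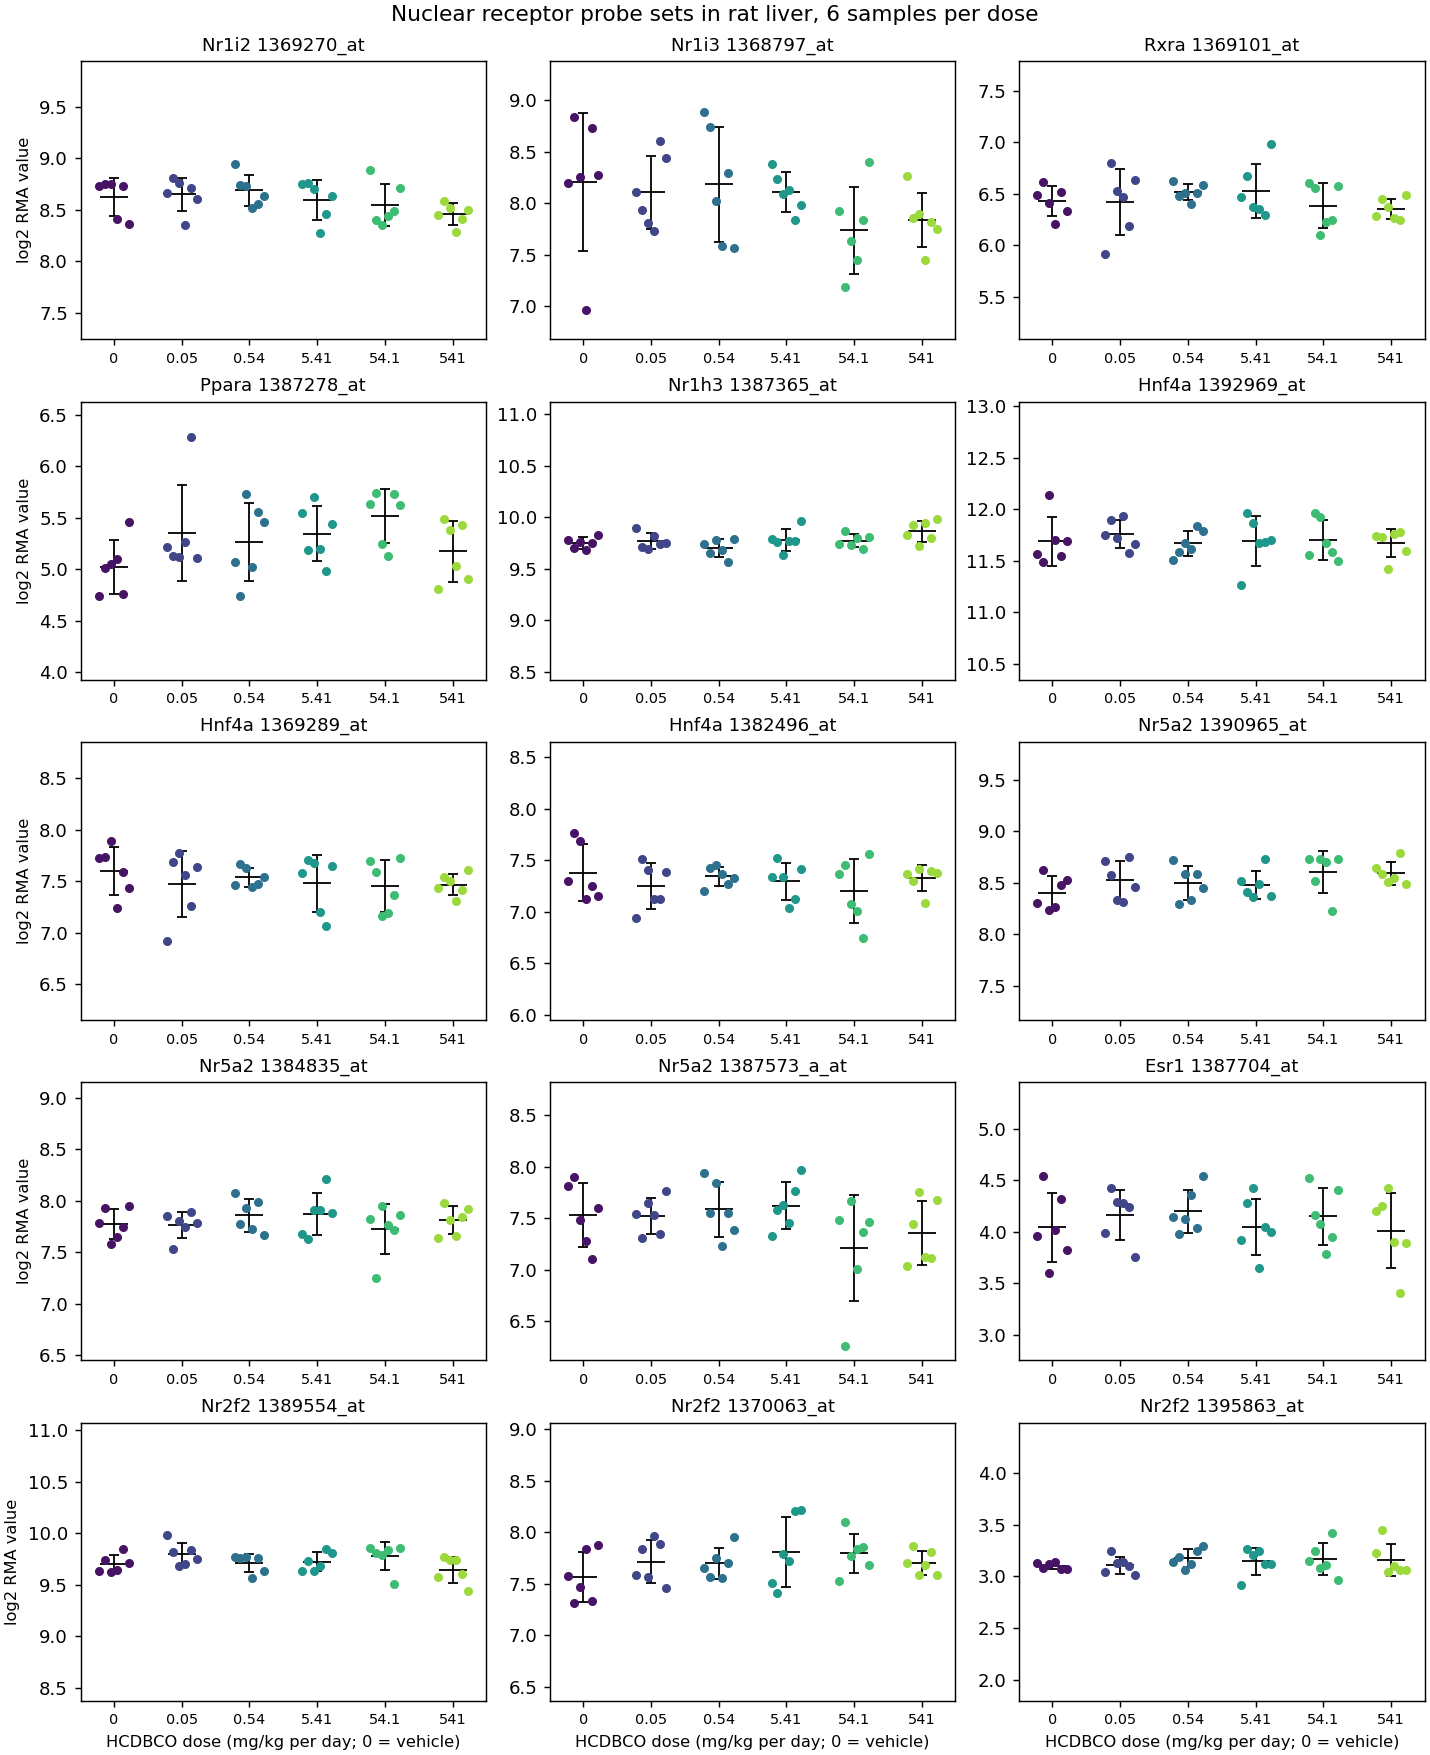
Log2 RMA values (y axis) of the 15 receptor probe sets in each of the 36 samples, by HCDBCO dose in mg/kg with vehicle at 0 (x axis). Points are samples, the long bar is the group mean and the error bar its SD, and each panel spans the same log2 range; in every panel the 6 values of each dose overlap those of vehicle.

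The xenobiotic sensors come first. Nr1i2 had values of 8.29 to 8.59 with a median of 8.48 at 541 mg/kg, against 8.36 to 8.75 with a median of 8.73 in vehicle. From vehicle to 541 mg/kg in dose order, the group means were 8.62, 8.65, 8.69, 8.60, 8.55 and 8.46. The group at 541 mg/kg had the lowest mean, and it overlapped vehicle only in part: 4 of the 6 vehicle values lay above every value at 541 mg/kg. The log2 difference was -0.16 (95% interval -0.36 to 0.03, limma adjusted p = 0.637), and the slope was -0.03 per dose step (adjusted p = 0.383).

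Nr1i3 had values of 7.45 to 8.26 with a median of 7.84 at 541 mg/kg, and of 7.18 to 8.40 with a median of 7.74 at 54.1 mg/kg, against 6.96 to 8.84 with a median of 8.26 in vehicle. Its group means from vehicle to 541 mg/kg were 8.21, 8.10, 8.18, 8.11, 7.74 and 7.84. Both high doses had lower means than the 4 other groups, and both overlapped vehicle. The log2 difference was -0.37 at 541 mg/kg (95% interval -0.85 to 0.11, adjusted p = 0.677) and -0.47 at 54.1 mg/kg (-0.95 to 0.01, adjusted p = 0.554). A single vehicle sample, replicate 4, was at 6.96, and the next vehicle value was 8.19. Without that sample the differences were -0.62 (adjusted p = 0.2999) and -0.72 (adjusted p = 0.199), still not past the threshold. Without vehicle replicate 2 instead, they shrank to -0.24 at 541 mg/kg and -0.34 at 54.1 mg/kg, so single vehicle samples moved them both ways. The within-group SD of Nr1i3 was 0.44, larger than that of 98.2% of the probe sets within 0.5 log2 units of its level, so its interval is the widest of the 15.

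Rxra had values of 6.25 to 6.48 with a median of 6.33 at 541 mg/kg, against 6.20 to 6.62 with a median of 6.44 in vehicle. Its difference was -0.07 (95% interval -0.31 to 0.16, adjusted p = 0.898). The shared partner of PXR, CAR, PPAR-alpha and LXR-alpha had a 95% interval from 0.809-fold to 1.11-fold.

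The 250 bases before the annotated start of 4 receptor genes and of 1 CAR and PXR target gene are shown. They set a target gene that rose beside its receptors. Rxra and Hnf4a are shown because Rxra varied with Hnf4a probe sets 1369289_at and 1382496_at from sample to sample, though not with 1392969_at. The sequences are those of RefSeq, build GRCr8. Capitals mark matches on either strand to the hexamers AGGTCA and AGTTCA, parts of nuclear receptor sites, to the direct repeat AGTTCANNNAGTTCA that holds AGTTCA at both ends, to GTTAAT, part of the site of HNF1 factors, and to the GC box GGGCGG. Of 33469 promoters of the same length, 14.1% held AGGTCA, 12.2% held AGTTCA, 0.00598% held the direct repeat, 6.45% held GTTAAT and 30.5% held GGGCGG.
Nr1i2, chr11:75965467-75965716, plus strand: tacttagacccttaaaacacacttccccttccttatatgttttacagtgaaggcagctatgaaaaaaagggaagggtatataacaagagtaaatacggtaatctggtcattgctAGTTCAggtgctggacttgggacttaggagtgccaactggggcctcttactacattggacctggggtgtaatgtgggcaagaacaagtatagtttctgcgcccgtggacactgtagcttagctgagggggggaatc
Nr1i3, chr13:86165170-86165419, plus strand: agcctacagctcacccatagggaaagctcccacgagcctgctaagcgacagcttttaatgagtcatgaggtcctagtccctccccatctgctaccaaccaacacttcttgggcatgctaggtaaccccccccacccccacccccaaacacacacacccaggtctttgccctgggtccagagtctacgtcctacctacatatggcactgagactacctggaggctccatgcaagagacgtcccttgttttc
Rxra, chr3:31387642-31387891, plus strand: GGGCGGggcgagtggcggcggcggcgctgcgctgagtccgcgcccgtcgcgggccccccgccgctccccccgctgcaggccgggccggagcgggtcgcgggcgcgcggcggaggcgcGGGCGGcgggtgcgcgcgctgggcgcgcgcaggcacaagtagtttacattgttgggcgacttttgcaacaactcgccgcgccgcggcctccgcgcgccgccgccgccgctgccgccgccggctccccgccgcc
Hnf4a, downstream start, chr3:172641586-172641835, plus strand: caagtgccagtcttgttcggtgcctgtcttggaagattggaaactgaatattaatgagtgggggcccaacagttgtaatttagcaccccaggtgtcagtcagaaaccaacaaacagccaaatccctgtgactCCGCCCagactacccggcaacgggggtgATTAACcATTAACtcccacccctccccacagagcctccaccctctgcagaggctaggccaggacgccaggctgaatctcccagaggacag
Cyp3a23-3a1, chr12:14398804-14399053, minus strand: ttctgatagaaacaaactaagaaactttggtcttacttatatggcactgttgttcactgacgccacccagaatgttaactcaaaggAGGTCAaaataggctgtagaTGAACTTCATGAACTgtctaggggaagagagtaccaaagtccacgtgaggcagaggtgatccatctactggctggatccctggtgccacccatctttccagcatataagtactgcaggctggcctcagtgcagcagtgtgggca
The Cyp3a23-3a1 window held the direct repeat, its first base at -144 from the start, and AGGTCA at -164. The Nr1i2 window held AGTTCA at -136, and the Nr1i3 window held none of the 5 motifs. The Rxra window was 82.8% G and C with GGGCGG at -250 and -133. The window of the downstream Hnf4a start held GTTAAT on the other strand at -90 and at -83, and GGGCGG on the other strand at -118. These are matches of letters only, and no binding was measured here. Of the 9 receptors, 8 had a promoter entry and Nr2f2 had none.

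The genes that PXR and CAR regulate were set beside their receptors. Of 25 listed CAR and PXR target genes, 20 were measured by a probe set of a single gene, and 8 of them rose at 541 mg/kg against vehicle while 0 fell; of all probe sets 0.116% rose and 0.0387% fell. The 8 were Ces2c, Ugt2b1, Abcc3, Cyp2c6v1, Cyp3a23-3a1, Ephx1, Aldh1a1 and Gsta3, which encode a carboxylesterase, a glucuronosyltransferase, an efflux transporter, 2 cytochromes P450, an epoxide hydrolase, a retinaldehyde dehydrogenase and a glutathione transferase. The median log2 difference over the 20 was 0.39, against 0.01 over all probe sets. At 54.1 mg/kg 4 of the 20 rose, where 0.0419% of all probe sets rose and 0.0322% fell, and over the dose order 10 rose, where 0.341% did. The list was drawn up with earlier results of these samples known, so its count is not independent evidence. The counts moved with single samples: at 541 mg/kg 5 rose without vehicle replicate 4 or without 541 mg/kg replicate 1, 3 or 4, and at 54.1 mg/kg 1 rose without vehicle replicate 1.

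Ces2c, a carboxylesterase, averaged 8.84 ± 0.35 at 541 mg/kg and 7.33 ± 0.21 in vehicle (SD, n = 6 each). Its values were 8.50 to 9.35 with a median of 8.70 at 541 mg/kg, against 7.14 to 7.69 with a median of 7.29 in vehicle, without overlap. Its log2 difference was 1.5 ± 0.14 (SE, limma adjusted p = 2.46e-08). Abcc3, which carries conjugates out of the hepatocyte into blood, had 5.79 to 8.04 with a median of 7.06 at 541 mg/kg, against 4.52 to 5.20 with a median of 5.06 in vehicle, and its difference was 2.14 ± 0.28 (adjusted p = 3.53e-05). Cyp3a23-3a1, whose promoter is shown above, had 13.19 to 13.56 with a median of 13.38 at 541 mg/kg, against 12.60 to 12.86 with a median of 12.72 in vehicle, and its difference was 0.67 ± 0.11 (adjusted p = 0.00102). Ugt2b1, a glucuronosyltransferase, had 12.98 to 13.27 with a median of 13.07 at 541 mg/kg, against 11.85 to 12.25 with a median of 12.13 in vehicle (1.01 ± 0.13, adjusted p = 3.36e-05). The values of all 4 genes at 541 mg/kg lay above every vehicle value, while those of Nr1i2, Nr1i3 and Rxra overlapped vehicle. The 4 were taken from the 8 that passed this same comparison, so that choice largely set their lack of overlap. Of all probe sets, 0.744% did not overlap vehicle at 541 mg/kg. The contrast with the receptors, which are shown whatever their values, is a description only. Whether a receptor's difference was smaller than that of a target was not tested.

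**Figure D2:**
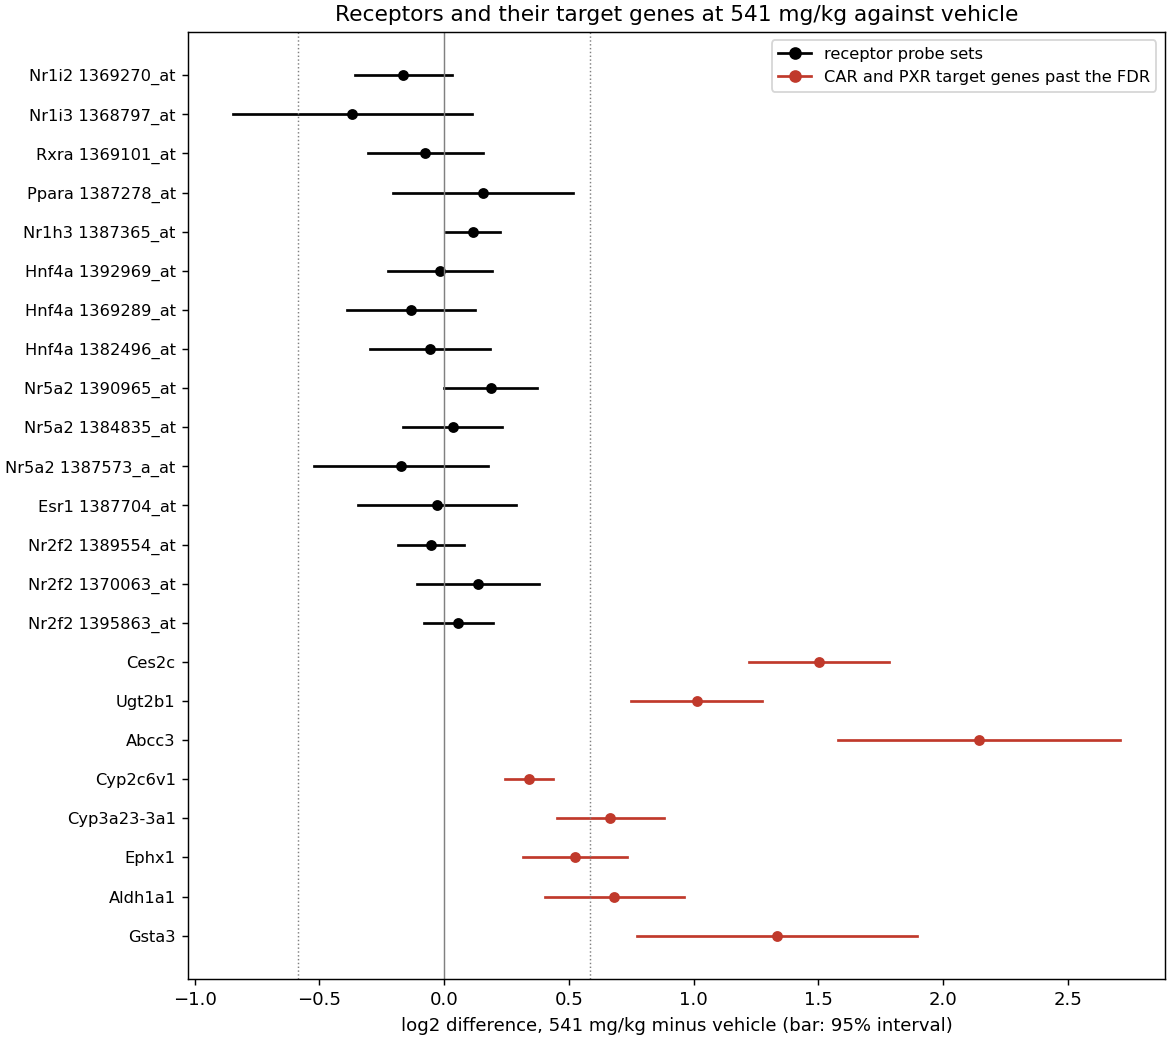
Log2 difference of 541 mg/kg minus vehicle (x axis) with its 95% interval for the 15 receptor probe sets (black) and for the 8 CAR and PXR target genes that passed the test (red); dotted lines mark a 1.5-fold change. The receptors lie between -0.37 and 0.19, and the target genes, shown because they passed, between 0.34 and 2.14.

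Among the metabolite sensors, Ppara had the largest log2 difference of the 15 probe sets at 54.1 mg/kg. It had values of 5.13 to 5.74 with a median of 5.63 at 54.1 mg/kg, against 4.74 to 5.46 with a median of 5.03 in vehicle. At 54.1 mg/kg, 4 of the 6 samples lay above every vehicle sample. The difference was 0.50 (95% interval 0.14 to 0.86), with an unadjusted p of 0.00806 and an adjusted p of 0.354. Its group means from vehicle to 541 mg/kg were 5.02, 5.35, 5.26, 5.34, 5.52 and 5.17, so the highest dose lay nearest to vehicle. At 541 mg/kg the difference was 0.15 (-0.21 to 0.52, adjusted p = 0.851). The difference of 0.33 at 0.05 mg/kg was 0.15 without replicate 5 of that dose, whose value of 6.29 stood above the next value of 5.27. Of 17 PPAR-alpha target genes measured, which serve fatty acid oxidation, 0 were called at 541 or at 54.1 mg/kg. Of all probe sets 0.155% and 0.0741% were called there. The median log2 difference of the 17 from vehicle was 0.08 at 54.1 mg/kg, with 11 positive. At 541 mg/kg it was -0.04, with 6 positive. Cpt1a, Angptl4 and Fabp1 had differences of -0.37, -0.58 and -0.06 at 541 mg/kg with adjusted p from 0.335 to 0.618.

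Nr1h3 was the steadiest of the receptors, with a within-group SD of 0.08. It had values of 9.72 to 9.98 with a median of 9.88 at 541 mg/kg, against 9.68 to 9.83 with a median of 9.75 in vehicle. The difference of 0.12 had an interval of 0.01 to 0.23 and an adjusted p of 0.506, so a change above 1.17-fold lies outside the interval. LXR-alpha is itself on the list of LXR target genes, together with the sterol transporters Abcg5 and Abcg8. Of the 14 genes on that list, 0 were called at 541 or at 54.1 mg/kg, where 0.155% and 0.0741% of all probe sets were. Over the dose order 2 fell, Abcg5 and Abcg8, with slopes of -0.20 and -0.25 per dose step (adjusted p = 0.00807 and 0.0145), where 0.374% of all probe sets fell. With only the brighter probe sets tested, Abcg5 was called at 54.1 mg/kg (difference -1.08, adjusted p = 0.0406; 0.0575 over all probe sets).

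The hepatocyte factors were each read by 3 probe sets. For Hnf4a the differences at 541 mg/kg against vehicle were -0.02, -0.13 and -0.06, with adjusted p from 0.805 to 0.977, and those at 54.1 mg/kg were 0.01, -0.14 and -0.18. Its brightest probe set, 1392969_at, had values of 11.42 to 11.78 with a median of 11.73 at 541 mg/kg, against 11.49 to 12.13 with a median of 11.63 in vehicle. Its group means from vehicle to 541 mg/kg spanned only 11.67 to 11.76. Of 15 HNF4-alpha target genes measured, 1 was called at 541 mg/kg, where 0.155% of all probe sets were. This was Ces2c, which is also on the CAR and PXR list.

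The 3 probe sets of Nr5a2 differed in sign. Probe set 1390965_at had values of 8.48 to 8.79 with a median of 8.57 at 541 mg/kg, against 8.24 to 8.63 with a median of 8.39 in vehicle, and a difference of 0.19 (0.00074 to 0.37, adjusted p = 0.547). Probe set 1387573_a_at had 7.04 to 7.76 with a median of 7.29 at 541 mg/kg, against 7.11 to 7.90 with a median of 7.54 in vehicle, and a difference of -0.17 (-0.52 to 0.18, adjusted p = 0.819). The third, 1384835_at, differed by 0.03. The groups overlapped for all 3, and which transcripts each probe set reads was not examined here. Among 11 genes listed for FXR, SHP and LRH-1, which govern bile acid synthesis, only Gnmt, a glycine methyltransferase, was called at 541 mg/kg. Of all probe sets 0.155% were called there. Gnmt fell to 11.44 ± 0.15 at 541 mg/kg, against 11.91 ± 0.08 in vehicle (SD, n = 6 each). Its log2 difference was -0.47 ± 0.09 (SE, limma adjusted p = 0.0195). Gnmt also fell at 54.1 mg/kg (-0.48, adjusted p = 0.028), where 0.0741% of all probe sets were called. The call rested on single samples: at 541 mg/kg it was lost without vehicle replicate 1 or without 541 mg/kg replicate 1, 3 or 4, and at 54.1 mg/kg without vehicle replicate 1, 3 or 5 or without 54.1 mg/kg replicate 2, 4 or 5.

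Esr1 was dim, with values of 3.41 to 4.42 and a median of 4.05 at 541 mg/kg, against 3.60 to 4.54 and a median of 3.99 in vehicle. Its difference was -0.03 (-0.35 to 0.29, adjusted p = 0.976). At 541 and at 54.1 mg/kg 0 of 10 ESR1 target genes of rodent liver were called, where 0.155% and 0.0741% of all probe sets were. The Nr2f2 probe sets 1389554_at, 1370063_at and 1395863_at differed by -0.05, 0.14 and 0.06 at 541 mg/kg, with adjusted p from 0.782 to 0.87. Probe set 1370063_at had the higher mean at each of the 5 doses, with differences of 0.15, 0.13, 0.24, 0.23 and 0.14 from 0.05 to 541 mg/kg, and none passed the test. At 5.41 mg/kg its values were 7.41 to 8.22 with a median of 7.75, against 7.31 to 7.87 with a median of 7.52 in vehicle, and they overlapped.

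No gene passed the test among the other nuclear receptors and their helpers at 541 mg/kg. Of 31 further nuclear receptor genes measured, 0 were called at 541 mg/kg, where 0.155% of all probe sets were. At that share a count of 0 does not set a list of this size apart. Those of the 31 with the smallest p were Nr4a1 at 0.29, Nr3c1, the glucocorticoid receptor, at -0.29, and Rarb at 0.33 (adjusted p from 0.145 to 0.486). Of 21 coregulators and CAR chaperones, 0 were called, and Ncoa6, Carm1 and Ppargc1b had differences of -0.23, 0.15 and -0.24 (adjusted p from 0.333 to 0.575). The median log2 difference at 541 mg/kg was -0.01 over the 31 receptors and -0.05 over the 21 helpers, against 0.01 over all probe sets.

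Since no receptor passed the test for dose, their variation between samples was described within the dose groups. Each value was taken as its deviation from the mean of its group, over the 36 samples, and p-values came from 100000 permutations within groups, two-sided. Of the 105 pairs of receptor probe sets, 8 passed an adjusted p of 0.05 for r, and each of these passed for rho too. The share of pairs that would pass among all probe sets was not computed. Of the 8, 7 were positive, and 2 were between probe sets of a single gene. Other pairs passed for rho only. They were Nr1i2 with Rxra (rho = 0.55, adjusted p = 0.0245) and with Hnf4a 1382496_at (0.59, 0.0182). Nr1i3 with Hnf4a 1392969_at (-0.52, 0.0245) and Nr5a2 1390965_at with 1384835_at (0.58, 0.0135) were the others. Where r is given without the 2 farthest samples, they are those farthest from the median of the receptor probe set, the first-named of a receptor pair. All samples of a pair share their array and its normalisation.

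**Figure D3:**
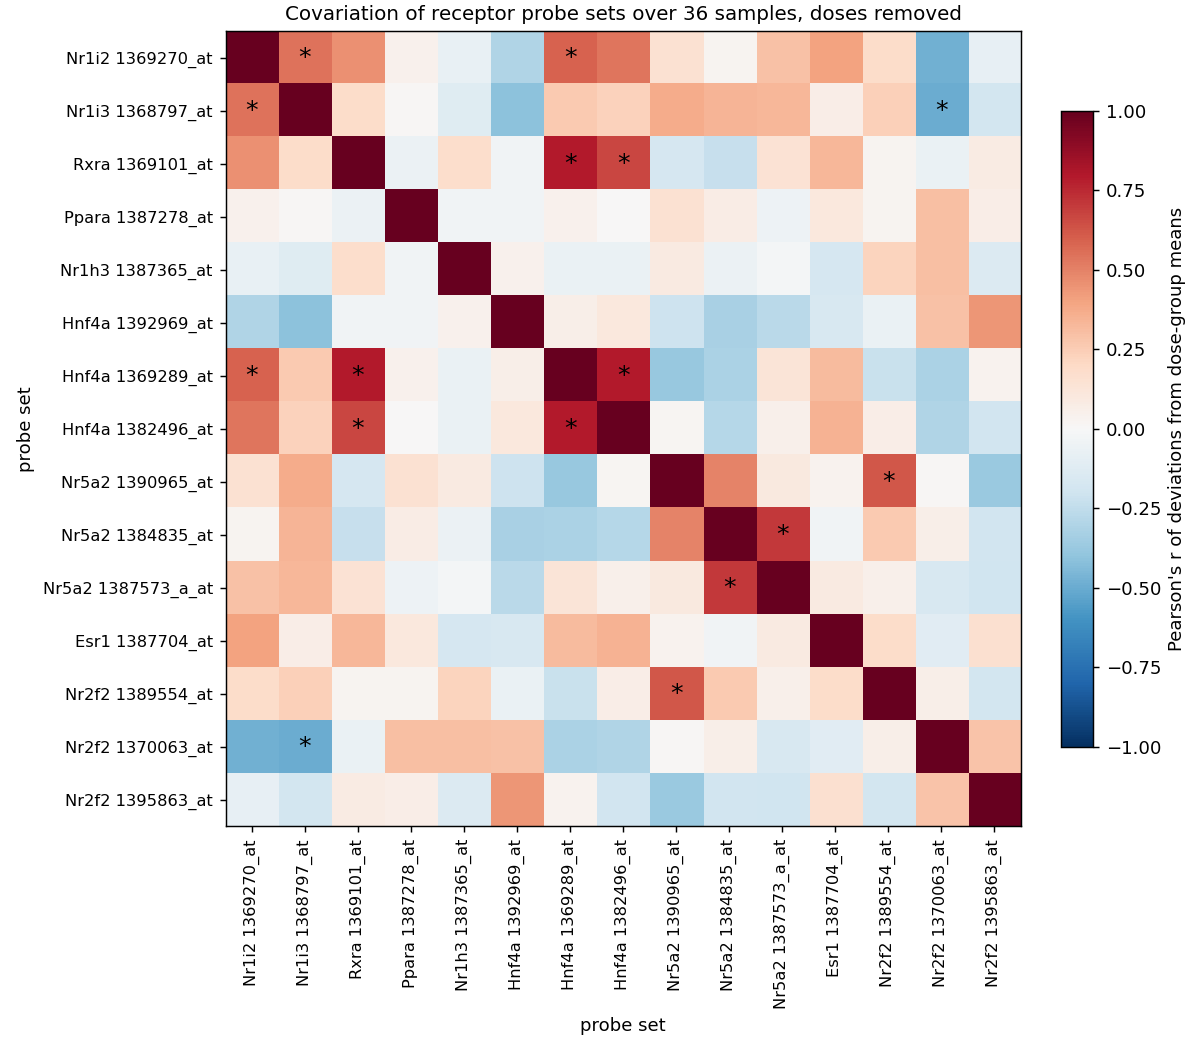
Pearson's r (colour) between the 15 receptor probe sets (both axes), computed on deviations from dose-group means over 36 samples; a star marks an adjusted permutation p under 0.05. The 8 starred pairs include Rxra with 2 Hnf4a probe sets at 0.79 and 0.67, and Nr1i2 with Nr1i3 at 0.54.

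Rxra varied together with Hnf4a probe sets 1369289_at and 1382496_at. The correlation of Rxra with Hnf4a probe set 1369289_at was r = 0.79 and rho = 0.79 (permutation p = 1e-05 each, the smallest the permutations can give; adjusted p = 0.000525 each). Without the 2 samples farthest from the median of Rxra, r was 0.77. It was positive in 5 of the 6 dose groups and ran from -0.06 to 0.97 among them. Of the other 31040 probe sets, 7 had a higher r with Rxra and 20 with this Hnf4a probe set. Such counts, here and below, take only r of the same sign as that of the pair. With Hnf4a probe set 1382496_at, r was 0.67 and rho 0.72 (permutation p = 0.0001 and 6e-05, adjusted p = 0.00289 and 0.0021; r = 0.67 without the 2 farthest samples; positive in 5 of the 6 groups), with 141 and 215 other probe sets beyond it. With the brightest Hnf4a probe set, 1392969_at, Rxra had r = -0.03 and rho = -0.10 (permutation p = 0.871 and 0.6, adjusted p = 0.929 and 0.829).

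The 3 Hnf4a probe sets did not behave as a single reading. Probe sets 1369289_at and 1382496_at had r = 0.79 and rho = 0.87 (permutation p = 1e-05 each, the smallest possible; adjusted p = 0.000525 each; r = 0.79 without the 2 farthest samples), with 21 and 14 other probe sets beyond it. The brightest, 1392969_at, had r = 0.06 and r = 0.11 with these 2. For Nr5a2, probe sets 1384835_at and 1387573_a_at had r = 0.71 and rho = 0.64 (permutation p = 0.00011 and 0.00015, adjusted p = 0.00289 and 0.00394; r = 0.62 without the 2 farthest samples), and 0 other probe sets had a higher r with either of them.

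The sensors Nr1i2 and Nr1i3 had r = 0.54 and rho = 0.55 (permutation p = 0.00138 and 0.00117, adjusted p = 0.0193 and 0.016). The relation was positive in all 6 dose groups, between 0.22 and 0.75, and r was 0.57 without the 2 samples farthest from the median of Nr1i2. Vehicle replicate 4, the outlying sample of Nr1i3, was not among them, and r without it was not computed. Of the other 31040 probe sets, 645 had a higher r with Nr1i2 and 118 with Nr1i3. Nr1i2 lay below its group mean in replicate 4 of all 6 groups, and Nr1i3 in replicate 4 of 5 groups. When the replicate number was also removed, r was 0.32 and the pair no longer passed (adjusted p = 0.37). Nr1i2 with Hnf4a probe set 1369289_at had r = 0.59 and rho = 0.66 (permutation p = 0.00147 and 0.00021, adjusted p = 0.0193 and 0.00441; r = 0.62 without the 2 farthest samples), with 408 and 546 other probe sets beyond it. With Hnf4a 1382496_at Nr1i2 had r = 0.54 (adjusted p = 0.052), and with 1392969_at r = -0.30 (adjusted p = 0.431). Nr1i3 with Nr2f2 probe set 1370063_at had r = -0.49 and rho = -0.49 (permutation p = 0.00114 and 0.00369, adjusted p = 0.0193 and 0.0323; r = -0.47 without the 2 farthest samples), with 276 and 1033 beyond it. With Nr2f2 1389554_at and 1395863_at, Nr1i3 had r = 0.24 and -0.19 (adjusted p = 0.469 and 0.56). Nr5a2 probe set 1390965_at with Nr2f2 probe set 1389554_at had r = 0.62 and rho = 0.55 (permutation p = 0.00042 and 0.00122, adjusted p = 0.00882 and 0.016; r = 0.49 without the 2 farthest samples), with 114 and 16 beyond it. For both probe sets the lowest sample at 54.1 mg/kg was replicate 5 (8.23 and 9.50), the array with the lower upper quartile. For this pair r without that array alone was not computed.

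**Figure D4:**
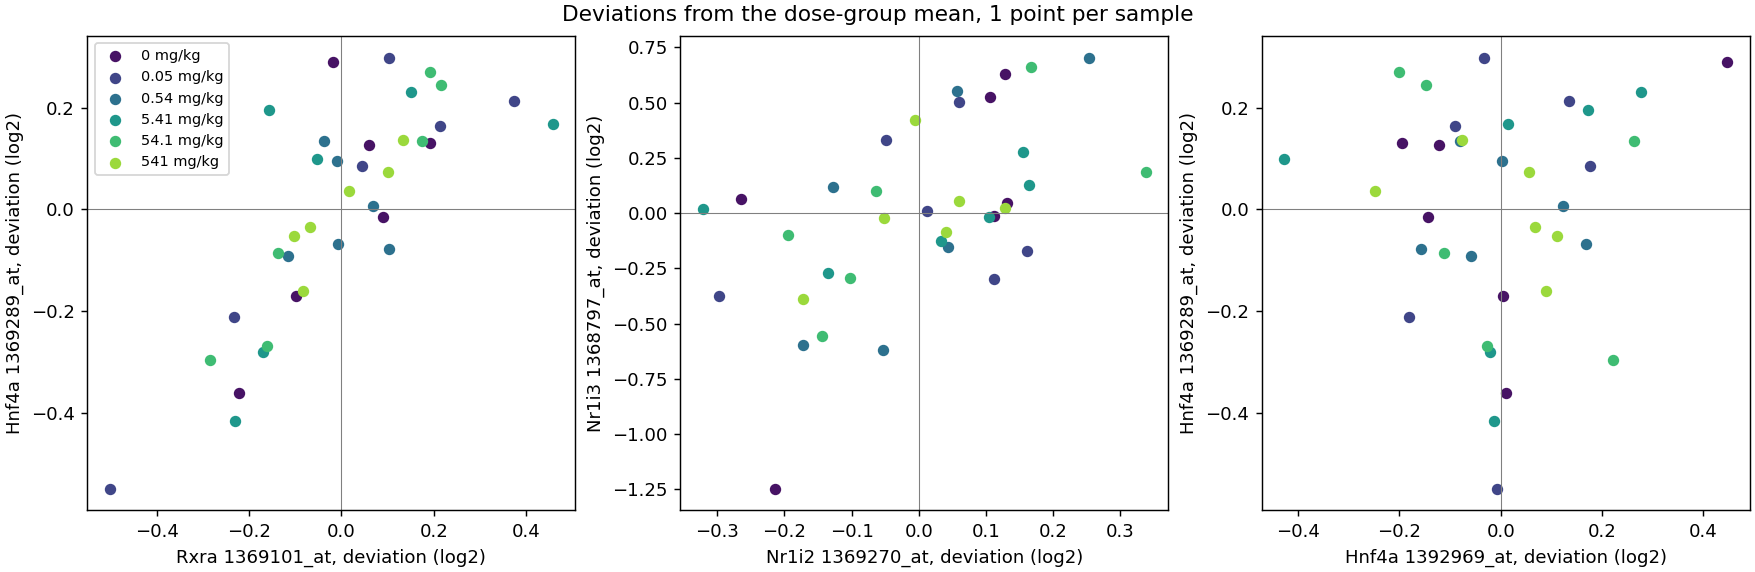
Deviation of each of the 36 samples from its dose-group mean, in log2 units, for Rxra against Hnf4a 1369289_at (left, r = 0.79), Nr1i2 against Nr1i3 (middle, r = 0.54) and 2 Hnf4a probe sets (right, r = 0.06). Points are samples coloured by dose; the lowest point of the middle panel is vehicle replicate 4.

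Measures of cell content and RNA quality moved with some of these probe sets. Of 120 relations between the 15 probe sets and 8 such measures, 8 passed for r. How many of all probe sets would pass with the same measures was not computed. The relations are therefore not shown to be particular to the receptors. The mean of 9 endothelial markers had r = 0.69 and rho = 0.73 with Nr1i2 (permutation p = 4e-05 and 1e-05, adjusted p = 0.0048 and 0.0012; r = 0.66 without the 2 farthest samples). With Nr1i3 the same mean had r = 0.64 and rho = 0.59 (permutation p = 0.00036 and 0.00063, adjusted p = 0.0144 and 0.0252; r = 0.60). With Nr2f2 probe set 1370063_at it had r = -0.64 and rho = -0.66 (permutation p = 0.00011 and 0.00017, adjusted p = 0.0066 and 0.0102; r = -0.66). The other Nr2f2 probe sets did not pass with the same mean. For the brightest, 1389554_at, r was 0.23 (adjusted p = 0.453), and for 1395863_at it was -0.37 (adjusted p = 0.167). That mean ran from 7.68 to 7.85 at 541 mg/kg and from 7.75 to 8.09 at 54.1 mg/kg, against 7.76 to 8.14 in vehicle. All 9 endothelial markers had lower means at 541 mg/kg than in vehicle, with a median difference of -0.15. None of the 9 was called, where 0.155% of all probe sets were. In whole liver, fewer cells of a type and less RNA per cell cannot be told apart.

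The remaining relations that passed were Nr2f2 1370063_at with the beta-actin 3' minus 5' signal (r = 0.52, rho = 0.52, adjusted p = 0.0243 and 0.0456) and with the Kupffer marker mean (r = -0.55, rho = -0.55, adjusted p = 0.0456 and 0.0401). With the Kupffer mean, Nr2f2 1389554_at and 1395863_at had r = -0.06 and -0.08. Nr1i3 with the stellate marker mean had r = -0.48 and rho = -0.50 (adjusted p = 0.0456 and 0.0635). Hnf4a 1382496_at with the Gapdh 3' minus 5' signal had r = 0.50 and rho = 0.51 (adjusted p = 0.0456 and 0.0519), and with the endothelial mean r = 0.59 and rho = 0.55 (adjusted p = 0.0456 and 0.0567). Hnf4a 1369289_at and 1392969_at had r = 0.48 and -0.43 with the endothelial mean (adjusted p = 0.123 and 0.151). Nr5a2 1390965_at with the hepatocyte marker mean passed for rho only (r = -0.46, rho = -0.54, adjusted p = 0.0708 and 0.0401). The part of cell content and RNA quality in the relations among receptors was not tested.

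Whether a receptor's RNA tracked a partner gene within dose groups was asked for 17 pairs. Most partners were target genes, but those of Nr2f2 were the endothelial marker Stab2 and the stellate marker Dcn. Before adjustment 3 of the 17 had a p under 0.05 for r. After adjustment 0 passed for r and 1 for rho. Nr1i3 with Ces2c had r = 0.39 and rho = 0.44 (permutation p = 0.0168 and 0.00863, adjusted p = 0.251 and 0.0734; r = 0.44 without the 2 farthest samples), positive in all 6 groups. Nr1i3 with Abcc3 had r = 0.29 and rho = 0.40 (permutation p = 0.0459 and 0.0189, adjusted p = 0.26 and 0.107). Nr1i2 with Cyp3a23-3a1 had r = -0.27 and rho = -0.23 (permutation p = 0.14 and 0.205, adjusted p = 0.396 and 0.581). With Ces2c, Nr1i2 had r = -0.03. Ppara with Cyp4a1 had r = 0.22, and Nr1h3 with Srebf1 had r = 0.17. Hnf4a 1392969_at with Nr1i3 had r = -0.41 and rho = -0.52 (permutation p = 0.0295 and 0.00232, adjusted p = 0.251 and 0.0394), negative in all 6 groups, so only the rank correlation passed. The sign differed by probe set: Hnf4a 1369289_at and 1382496_at had r = 0.26 and 0.23 with Nr1i3. Their adjusted permutation p was 0.439 and 0.61 among the 105 pairs of receptor probe sets.

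The genes whose deviations were most like each receptor's, among 14208 named genes, are given as a description. For Rxra they were Grina (r = 0.85), Met (0.83) and Acox2 (0.81). For Nr1i2 they were Akr1c14 (0.79), Acot12 (0.78) and Ddx41 (0.76), and for Nr1i3 Pcp4l1 (0.75), H6pd (0.70) and Kdr (0.69), which is also among the 9 endothelial markers. For Ppara they were Adcy10 (0.68), Gtse1 (0.60) and Manea (0.59). For Nr1h3 they were Eif2d (0.76), Nudt18 (0.73) and Timmdc1 (0.71). Hnf4a 1392969_at was most like Tead1 (0.76), Acer3 (0.74) and Prkd3 (0.73), and Nr5a2 1390965_at most like Atosa (0.83), Susd6 (0.80) and Shroom2 (0.77). Esr1 was most like Bves (0.67), Atp5pb (0.64) and Trim65 (0.61), and Nr2f2 1389554_at most like Cnot6 (0.68), Itgav (0.67) and Skida1 (0.67). Each r is over the 36 samples.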

How the data were processed

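Liver RNA of 36 samples in 6 dose groups was measured on Affymetrix 3′ arrays. The deposited values, 1 per probe set and array, are read here as log2 from their range; their log base is not given in the sources used here. They had been made with RMA and the affy package, per the submitters' processing notes, which give no versions; RMA corrects background, normalises between arrays and summarises probes, which can shrink differences of dim probe sets. Raw intensities were not used here, and the number of arrays limits the precision. Of 31099 probe sets, 57 controls were left out. Genes were named from the array's annotation, and promoters came from RefSeq, build GRCr8.

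Using limma (version 3.58.1, under R version 4.3.3), 6 group means were estimated, with two-sided tests and Benjamini-Hochberg adjustment over 31042 probe sets; the submitters' own test, named in the design text as R/maanova at a false discovery rate of 5%, was not used. The dose trend took scores 0 to 5. The script was tested on simulated data. Correlations used scipy and numpy. The receptors, gene lists and pairs were chosen with earlier results of these data known. From each list the 3 genes with the smallest p at 541 mg/kg were named, and for each receptor's brightest probe set the 3 genes most like it; other genes were named after their values were seen. The alternatives were centring each array, testing only bright probe sets, another prior, array weights, fitting only the groups compared, the replicate number as a block and leaving out each sample.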

Additional observations from a re-analysis of the deposited data

Results flagged for a closer look

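In each dose group of 6 samples, a receptor probe set was singled out where its highest or lowest sample stood apart, with a gap to the next sample larger, relative to the group's range, than Dixon's critical value at the 95% level. Chance does this in about 1 in 20 groups; it occurred in 6 of 90.

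Nr1i3 was lowest in vehicle replicate 4 at 6.96, with the next vehicle value at 8.19. Leaving out this sample enlarged the differences of Nr1i3 at 54.1 and 541 mg/kg, and leaving out vehicle replicate 2 shrank them. Ppara was highest in 0.05 mg/kg replicate 5 at 6.29, with the next value at 5.27. Hnf4a 1392969_at was highest in vehicle replicate 3 at 12.13, with the next at 11.7. Hnf4a 1382496_at was lowest in 541 mg/kg replicate 4 at 7.08, with the next at 7.3. Nr5a2 1384835_at was lowest in 54.1 mg/kg replicate 2 at 7.26, with the next at 7.71. Nr2f2 1389554_at was lowest in 54.1 mg/kg replicate 5 at 9.5, with the next at 9.78; this is the array with the lower upper quartile.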

How the results depend on the processing

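None of the 75 receptor differences passed the threshold in any of 440 refits under the other settings or 900 refits that left out a sample. The sign turned in 6 of the 440: with array weights Nr1i3 at 0.54 mg/kg was 0.00023, Hnf4a 1392969_at was 0.017 at 0.54 mg/kg and 0.022 at 541 mg/kg, and Esr1 at 5.41 mg/kg was -0.024. With each array centred, Nr2f2 1389554_at at 0.54 mg/kg was -0.0051 and Hnf4a 1392969_at at 5.41 mg/kg was -0.0057. Leaving out a sample turned the sign in 66 of the 900, in 26 differences no larger than 0.103. For Esr1 the range was -0.079 to 0.11 at 5.41 mg/kg and -0.12 to 0.091 at 541 mg/kg. For Hnf4a 1382496_at the range was -0.088 to 0.039 at 0.54 mg/kg and -0.11 to 0.020 at 541 mg/kg. For Hnf4a 1392969_at the range was -0.058 to 0.071 at 0.54 mg/kg, -0.052 to 0.093 at 5.41 mg/kg, -0.039 to 0.10 at 54.1 mg/kg and -0.057 to 0.072 at 541 mg/kg. For Nr1h3 the range was -0.0074 to 0.035 at 0.05 mg/kg and -0.0055 to 0.061 at 5.41 mg/kg. For Nr1i2 the range was -0.027 to 0.085 at 0.05 mg/kg and -0.079 to 0.039 at 5.41 mg/kg. For Nr1i3 the range was -0.35 to 0.023 at 0.05 mg/kg, -0.27 to 0.10 at 0.54 mg/kg and -0.35 to 0.028 at 5.41 mg/kg. For Nr2f2 1389554_at the range was -0.0035 to 0.041 at 0.54 mg/kg and -0.00072 to 0.053 at 5.41 mg/kg. For Nr2f2 1395863_at the range was -0.018 to 0.029 at 0.05 mg/kg and -0.0019 to 0.081 at 541 mg/kg. For Nr5a2 1384835_at the range was -0.044 to 0.042 at 0.05 mg/kg, -0.092 to 0.047 at 54.1 mg/kg and -0.0036 to 0.070 at 541 mg/kg. For Nr5a2 1387573_a_at the range was -0.096 to 0.063 at 0.05 mg/kg and -0.032 to 0.13 at 0.54 mg/kg. For Rxra the range was -0.081 to 0.094 at 0.05 mg/kg and -0.086 to 0.015 at 54.1 mg/kg. Among correlations, Nr1i2 with Ces2c was 0.028 after centring, and Nr2f2 1389554_at with Dcn was 0.090 with the replicate block and 0.044 without 54.1 mg/kg replicate 5; Nr1i2 with Nr1i3 fell to 0.32 with the replicate block. The causes were not tested.

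Over all probe sets, same-numbered samples showed no common deviation by the rule used (r from -0.26 to 0.233, 24 of 90 pairs above 0.1; 5 of 36 samples correlated best with their own number), so the numbers were not taken as pairs. Among receptors, 4 of 90 combinations of probe set and number lay on a single side of the group mean in all 6 groups: Nr1i2 number 4 and Hnf4a 1369289_at number 5 below, Hnf4a 1369289_at number 2 and Nr2f2 1389554_at number 2 above. The share over all probe sets was not computed, so these 4 are not shown to be more than chance gives. With the replicate block 0 receptor probe sets were called; over all probe sets 44 were called at 541 mg/kg and 28 at 54.1 mg/kg, against 48 and 23 without it. With only bright probe sets these were 83 and 37, with array weights 80 and 64. The list counts under settings other than the bright filter, and the correlations under centring and the block, were added after the data were seen. CAR and PXR target genes called at 541 mg/kg remained 8 in number under all 5 other settings. LXR target genes called at 54.1 mg/kg were 1 with bright probe sets and 2 with array weights. The dimmest receptors, Esr1 and Nr2f2 1395863_at, limit what the arrays can show.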

Other observations

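Among 21 liver-enriched transcription factors, 0 were called at 541 or at 54.1 mg/kg, where 0.155% and 0.0741% of all probe sets were. Over the dose order 2 of the 21 passed. Of all probe sets, 0.715% passed over the dose order, 0.341% rising and 0.374% falling. Xbp1, a factor of the unfolded protein response, fell by 0.097 per dose step (limma adjusted p = 0.0484); it averaged 11.61 ± 0.32 at 541 mg/kg and 12.14 ± 0.22 in vehicle (SD, n = 6 each). Ahr, the receptor for dioxin-like compounds, rose by 0.094 per dose step (adjusted p = 0.0473); it averaged 5.25 ± 0.17 at 541 mg/kg and 4.79 ± 0.27 in vehicle (SD, n = 6 each). These trend calls rested on single samples: of 36 refits that each left out 1 sample, 16 called 0 of the 21, 12 called 1 and 8 called 2 or more. The 8 were those without vehicle replicate 2, 0.05 mg/kg replicate 1, 2 or 5, 5.41 mg/kg replicate 4 or 6, 54.1 mg/kg replicate 5 or 541 mg/kg replicate 6. With each array centred on its median 0 passed, and with the trended, robust prior 1. These genes were singled out after their values were seen.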
